A study of Mus musculus with 8 samples.

Results

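A set of 40 genes of the G2/M transition and the mitotic spindle was followed in mouse mammary tumours grown in obese and lean hosts. The genes were chosen by name from textbook roles in mitosis, and all 40 symbols were found among the 50143 gene IDs of the deposited count table, where all 40 also passed the filter on low counts that left 14887 tested genes. The tumours grew from Py230 cells, a line derived from a mouse breast adenocarcinoma, placed in mammary gland 4 of female C57BL/6 mice that had been ovariectomized at 6 weeks of age. The 4 obese hosts ate a high-fat diet of 5.1 kcal/g in which fat supplied 60% of calories, and the 4 lean hosts a regular diet of 3.6 kcal/g with 10%, for 6 weeks before tumour cells were given. Tumours were taken on day 56, so both groups share the cell line, the ovariectomy, the site and the day of harvest, and a single cell line stands for the tumour in each of them. Bulk RNA of whole tumours was sequenced. Each level or log2 ratio below is a mean ± SD over 4 tumours per group unless it is given per tumour. The ± of a log2 change is its standard error (SE).

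Entry into mitosis depends on CDK1 bound to cyclins A and B, which CDC25 phosphatases switch on. Aurora and Polo kinases then build the spindle, the kinetochore ties each chromosome to microtubules, and a checkpoint holds the cell until every kinetochore is attached. The anaphase-promoting complex ends the process by marking cyclin B and securin for destruction. Most of the genes are transcribed late in the cell cycle, through the MuvB complex with B-MYB and FOXM1, and their RNA is widely used as a measure of the share of dividing cells in a tumour.

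The promoters carry 2 short elements that are known from genes of this phase, the CCAAT box bound by NF-Y and the cell cycle genes homology region (CHR) bound by MuvB. RefSeq promoter windows (GRCm38.p6, 250 bases before to 50 after the RefSeq start) were found for 32 of the 40 genes, as 34 windows, and none was found for Ccna2, Foxm1, Aurkb, Kif20a, Incenp, Cdc25c, Tpx2 and Spc24. The RefSeq start is not always that of the gene coordinates used below. The windows of Kif2c, Cdca8 and Pttg1 lie wholly inside those coordinates. For Aurka and Mad2l1 the end of the window was found in no annotated transcript of the gene. CCAAT, read on both strands as CCAAT or ATTGG, stood in 26 of the 34 windows (76.5%), against 37.4% of all 32851 windows. A CHR, searched as TTTGAA or TTCGAA on both strands, stood in 27 of the 34 (79.4%), against 19.2% of all windows, and both elements stood together in 24 (70.6%), against 7.52%. These shares count windows and not genes: Ect2 and Prc1 each enter with 2 overlapping windows, all of which hold both elements. An E2F-like element, searched as TTTGGCGC, TTTCCCGC, TTTGCCGC or TTTCGCGC on both strands, stood in 1 of the 34 (2.94%), against 2.26% of all windows. A match is a stretch of letters and does not show that a factor binds there.

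The windows of 6 genes are printed 5′ to 3′ on the gene's own strand, in lower case with CCAAT and CHR letters in capitals, because these genes differ in how their RNA changed. Bub1 (chr2:127831810-127832109, minus strand), Kif23 (chr9:61946750-61947049, minus strand) and Top2a (chr11:99024140-99024439, minus strand) hold both elements and rose in obese tumours. Mki67 (chr7:135716330-135716629, minus strand) and Spc25 (chr2:69206164-69206463, minus strand) hold both elements and did not pass the test. Birc5 (chr11:117848987-117849286, plus strand) holds neither in this window and did not pass. These genes are examples, and not every gene that rose holds both elements. The windows found for Pttg1 and Mad2l1 hold neither, those of Anln and Ndc80 hold a CHR without CCAAT, and all of these genes rose.
Bub1: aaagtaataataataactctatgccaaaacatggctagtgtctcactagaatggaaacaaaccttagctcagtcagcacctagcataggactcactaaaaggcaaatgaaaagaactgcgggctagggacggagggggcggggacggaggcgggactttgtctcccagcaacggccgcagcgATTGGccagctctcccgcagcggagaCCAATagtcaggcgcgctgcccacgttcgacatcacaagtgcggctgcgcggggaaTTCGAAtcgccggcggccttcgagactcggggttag
Kif23: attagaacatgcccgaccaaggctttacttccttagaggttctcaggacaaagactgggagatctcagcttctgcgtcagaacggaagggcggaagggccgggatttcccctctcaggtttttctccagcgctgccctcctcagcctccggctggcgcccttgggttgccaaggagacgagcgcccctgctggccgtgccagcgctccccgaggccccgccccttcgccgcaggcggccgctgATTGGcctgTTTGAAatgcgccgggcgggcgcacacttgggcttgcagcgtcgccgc
Top2a: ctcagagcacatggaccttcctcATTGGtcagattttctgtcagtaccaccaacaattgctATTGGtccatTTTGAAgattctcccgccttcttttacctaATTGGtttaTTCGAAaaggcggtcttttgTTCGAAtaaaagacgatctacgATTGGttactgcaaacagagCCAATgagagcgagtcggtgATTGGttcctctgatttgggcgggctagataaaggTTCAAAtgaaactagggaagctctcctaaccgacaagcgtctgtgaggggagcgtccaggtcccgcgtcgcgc
Mki67: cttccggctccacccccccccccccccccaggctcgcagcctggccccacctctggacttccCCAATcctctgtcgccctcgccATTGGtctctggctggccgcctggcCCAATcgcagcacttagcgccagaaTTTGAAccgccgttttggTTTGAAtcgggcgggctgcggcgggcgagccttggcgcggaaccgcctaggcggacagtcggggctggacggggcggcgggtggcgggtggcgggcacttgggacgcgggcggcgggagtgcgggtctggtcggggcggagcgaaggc
Spc25: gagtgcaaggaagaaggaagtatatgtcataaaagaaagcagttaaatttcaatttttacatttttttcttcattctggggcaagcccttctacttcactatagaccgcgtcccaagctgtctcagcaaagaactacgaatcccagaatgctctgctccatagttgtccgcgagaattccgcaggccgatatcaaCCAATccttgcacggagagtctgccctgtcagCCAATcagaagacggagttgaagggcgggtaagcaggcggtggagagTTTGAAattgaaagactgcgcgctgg
Birc5: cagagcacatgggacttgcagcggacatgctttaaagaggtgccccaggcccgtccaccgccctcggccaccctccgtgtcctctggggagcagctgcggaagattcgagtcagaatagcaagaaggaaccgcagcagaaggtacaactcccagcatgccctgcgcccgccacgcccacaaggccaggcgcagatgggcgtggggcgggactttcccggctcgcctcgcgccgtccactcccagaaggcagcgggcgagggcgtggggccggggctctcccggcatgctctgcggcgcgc
With the first transcribed base counted as 1, the CHR starts at base 15 in Bub1 and at base 3 in Kif23, close to the start site, and CCAAT boxes start at −68 and −42 in Bub1 and 1 at −7 in Kif23. In Mki67 the CHR letters start at −116 and −98 and the CCAAT boxes at −188, −166 and −141. Counted by window, with more than 1 each for Ect2 and Prc1, 21 of 28 (75.0%) among genes that rose held both elements. Among genes without a call 3 of 6 windows (50%) did. The windows of genes without a call are too few to set these shares apart.

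Library totals ran from 25.7 to 66.7 M counts in obese tumours and from 39.0 to 53.7 M in lean tumours. Every one of the 40 genes had at least 437 counts in every library. Obese replicate 3 stood apart from its group: in a principal component analysis of the 1000 most variable genes its first coordinate was −12.9, with 96.5 to 136 for obese replicates 1, 2 and 4 and −93.7 to −70.2 for lean tumours (88.6% of the variance). Nothing in the labels says whether tumours shared a cage, a cell culture or a sequencing batch. The p-values set the difference between the groups against the spread of these 8 tumours within their groups, and they do not cover differences between experiments.

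RNA of the mitotic genes was higher in obese tumours as a group, with a minority that did not follow. Of the 40 genes, 32 rose in obese tumours and 0 fell by edgeR's quasi-likelihood test at an adjusted p under 0.05, while 8 were not called. Among all 14887 tested genes 30.9% were called higher and 28.4% lower by the same test, so a rise in 80.0% of the mitotic genes stood well above that background and a call as such was common (59.2% in either direction). A rise of at least 2-fold was called for 25 of the 40, against 17.2% of all tested genes. The median log2 change was 1.27 over the 40 genes and −0.04 over all tested genes. The ratio of group means ran from 0.677 for Mki67 to 8.02 for Anln, with a median of 2.41. All 4 obese tumours lay above all 4 lean tumours for 29 of the 40 genes (28.9% of tested genes), and below them for 1, Spc24 (28.1%). Summed over the 40 genes, expression was 5492, 5800, 4676 and 7203 CPM in obese replicates 1 to 4, against 2169, 3379, 2083 and 1608 CPM in lean replicates 1 to 4. In bulk RNA a larger share of dividing cells and more mitotic RNA per dividing cell cannot be told apart.

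Markers of cell types differed between the groups as well. Epithelial markers were listed for 11 genes, of which 6 fell and 0 rose, and their summed level was 66.3 to 865 CPM in obese tumours, against 2182 to 3208 CPM in lean tumours. Obese replicate 3 was the highest obese tumour for that sum, and without it 11 of the 11 fell. By DESeq2's Wald test 9 fell, and with limma-voom 10. The number that fell was 5 with GC and length offsets, without lean replicate 1 and without obese replicate 4. Markers of T and NK cells (6 of 8 tested fell, 22.2 to 75.5 CPM against 81.8 to 221 CPM) and of B and plasma cells (6 of 7 fell, 4.29 to 21.2 CPM against 130.3 to 230 CPM) were lower in obese tumours, with Trac listed at 0 in every library. Of 9 macrophage and monocyte markers 5 rose (1693 to 2132 CPM in obese tumours against 1139 to 2938 CPM in lean tumours). Csf1r, the only one that fell, was not called in 9 of 17 alternatives, among them each omission of a tumour other than lean replicate 2, and without lean replicate 2 the number that fell was 4. Of 10 fibroblast markers 2 rose and 5 fell (1193 to 5105 CPM against 1273 to 1840 CPM), of 8 endothelial markers 4 fell and 0 rose (205 to 221 CPM against 188 to 387 CPM), and of 7 adipocyte markers 1 rose and 0 fell (31.2 to 437 CPM against 94.1 to 404 CPM). The number of endothelial markers that fell was 2 without lean replicate 2, without obese replicate 1 and with GC and length offsets. The adipocyte marker that rose, Pparg, lost its call in 8 of 17 alternatives, and without obese replicate 4 the adipocyte markers had 0 that rose and 4 that fell. Among all tested genes 28.4% were called lower. The labelled line is an adenocarcinoma, an epithelial tumour, and epithelial markers were low in RNA of whole obese tumours. Whether that difference lies in tumour cells or in host cells was not tested. The part of these differences in the mitotic genes was not tested.

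**Figure D1:**
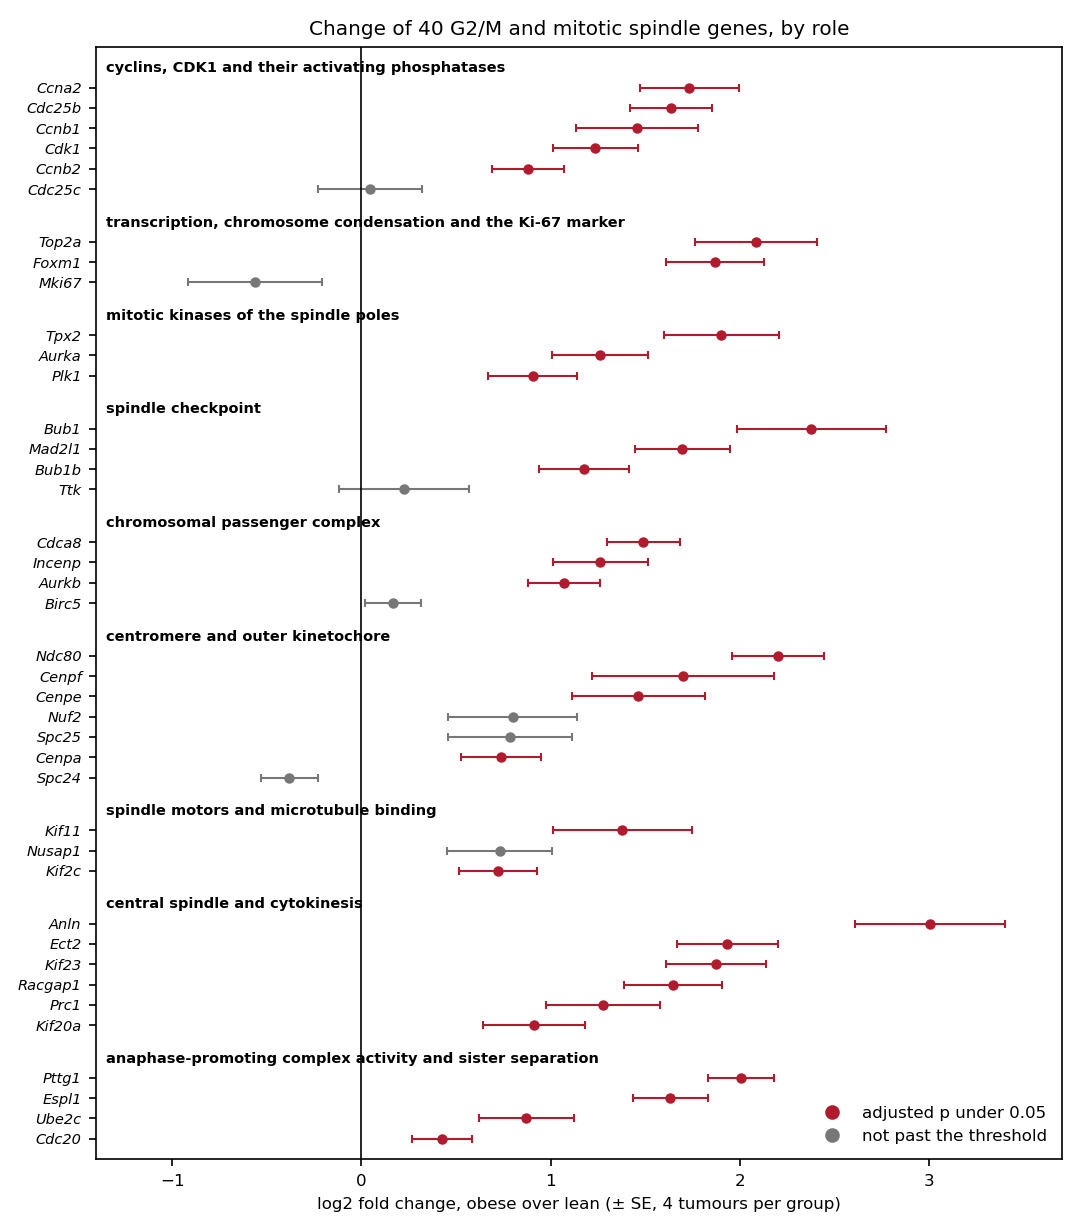
Log2 fold change of each of the 40 genes, obese over lean, with its standard error as a bar (4 tumours per group), grouped by role; red points passed an adjusted p of 0.05 and grey points did not. Most genes lie to the right of 0, with Anln farthest at 3.0, while Mki67 (−0.56) and Spc24 (−0.38) lie to the left.

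The cyclins and CDK1 rose together. Ccna2, the cyclin of S phase and early mitosis (ENSMUSG00000027715, chromosome 3, 36564865 to 36572150), had 277, 284, 249 and 365 CPM in obese tumours, against 82.3, 133, 81.3 and 57.1 CPM in lean tumours. The lowest obese value was well above the highest lean value, and the log2 change was 1.73 ± 0.26 SE (edgeR adjusted p = 0.00142). Cdk1, the kinase that drives mitotic entry, averaged 310 ± 45.2 CPM in obese tumours and 132 ± 41.4 CPM in lean tumours (1.24 ± 0.23, edgeR adjusted p = 0.00312). The B-type cyclins both rose, Ccnb1 by more than Ccnb2. Ccnb1 had 99.0, 89.7, 78.1 and 109 CPM in obese tumours, against 29.6, 59.7, 27.1 and 20.6 CPM in lean tumours (1.46 ± 0.32, edgeR adjusted p = 0.00661). Ccnb2 averaged 92.2 ± 12 CPM in obese tumours and 50.1 ± 12.2 CPM in lean tumours (0.88 ± 0.19, edgeR adjusted p = 0.00604). Ccnb1 has near-identical processed pseudogenes, among them Ccnb1-ps with 99.2% identity over 1287 bases, which the table lists at 0 in every library, and how reads shared with them were counted is not given in the sources used here.

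The CDC25 phosphatases, which remove the inhibitory phosphates from CDK1, moved apart. Cdc25b, which acts at the start of mitotic entry, had 96.9, 134, 87.5 and 134 CPM in obese tumours, against 35.0, 48.5, 34.0 and 28 CPM in lean tumours, which gave a log2 change of 1.64 ± 0.22 (edgeR adjusted p = 0.000874). Cdc25c had 30.6, 25.2, 33.2 and 33.2 CPM in obese tumours, against 26.0, 46.7, 27.7 and 18.2 CPM in lean tumours. The obese values of Cdc25c lay inside the lean range, and its log2 change was 0.05 ± 0.27 (edgeR adjusted p = 0.893, and 0.139 to 0.993 over the alternatives).

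Of the transcription and chromosome genes, Foxm1 and Top2a rose and Mki67 did not. Foxm1, the forkhead factor that switches on late cell cycle genes (ENSMUSG00000001517, chromosome 6, 128362967 to 128376146), had 144, 167, 101 and 205 CPM in obese tumours, against 39.3, 57.9, 38.7 and 33.0 CPM in lean tumours (1.87 ± 0.26, edgeR adjusted p = 0.000985). Top2a, the topoisomerase that untangles sister chromosomes, had 661, 689, 554 and 886 CPM in obese tumours, against 154, 275, 127 and 102 CPM in lean tumours (2.08 ± 0.32, edgeR adjusted p = 0.00158). Both genes separated the groups with no overlap. Mki67, which encodes Ki-67, a protein coat of mitotic chromosomes that pathologists stain as a proliferation marker (ENSMUSG00000031004, chromosome 7, 135689784 to 135716361), had 69.98, 118, 86.3 and 150 CPM in obese tumours, against 125, 268, 130 and 104 CPM in lean tumours. The groups overlapped, the highest value of all belonged to lean replicate 2, and the log2 change was −0.56 ± 0.35 (edgeR adjusted p = 0.192), or −0.17 without that tumour. Mki67 was called in 0 of 17 alternatives. The log2 ratio of Mki67 to Top2a counts within a tumour, a pair chosen after the values were seen and not tested, was −3.24, −2.54, −2.68 and −2.56 in obese tumours, against −0.30, −0.04, 0.04 and 0.03 in lean tumours.

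**Figure D2:**
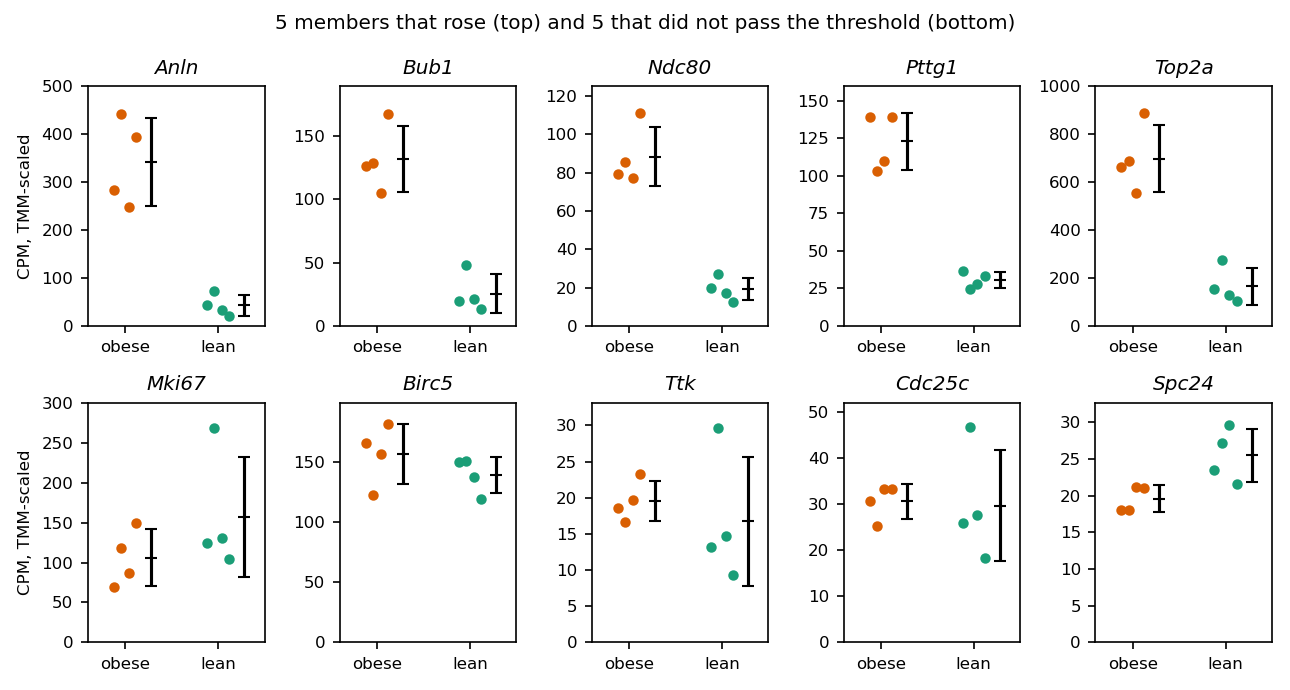
Expression of 10 genes in each tumour, in CPM scaled by TMM factors, with obese tumours left and lean tumours right in each panel; the bar beside the points is the mean ± SD (4 tumours). The genes in the upper panels separate the groups, such as Anln with 248 to 442 CPM in obese tumours against 21.3 to 72.8 CPM in lean tumours, while those in the lower panels did not pass the test.

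The kinases of the spindle poles rose, and the activator most of all. Tpx2, which activates Aurora A and brings it to spindle microtubules, had 262, 269, 189 and 355 CPM in obese tumours, against 67.9, 113, 60.0 and 47.0 CPM in lean tumours (1.90 ± 0.30, edgeR adjusted p = 0.00185). Aurka, which encodes Aurora A, averaged 105 ± 22.6 CPM in obese tumours and 43.7 ± 14.4 CPM in lean tumours (1.26 ± 0.25, edgeR adjusted p = 0.00461). Plk1, the Polo kinase of centrosome and kinetochore, had 109, 73.1, 60.2 and 98.7 CPM in obese tumours, against 42.1, 56.9, 49.5 and 33.8 CPM in lean tumours. The gap between the groups was narrow for Plk1, and its log2 change was 0.90 ± 0.23 (edgeR adjusted p = 0.0122), or 1.61 with GC and length offsets.

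The spindle checkpoint, which delays anaphase, rose in 3 of its 4 genes. Bub1, a checkpoint kinase of the kinetochore (ENSMUSG00000027379, chromosome 2, 127801122 to 127831865), had 127, 129, 104 and 167 CPM in obese tumours, against 19.6, 47.7, 21.1 and 13.1 CPM in lean tumours. Every obese tumour was above every lean tumour, with a log2 change of 2.38 ± 0.39 (edgeR adjusted p = 0.00216), or 2.99 with limma-voom and quality weights. Its relative Bub1b, which encodes the checkpoint inhibitor BUBR1, averaged 125 ± 20.3 CPM in obese tumours and 55.2 ± 18.1 CPM in lean tumours (1.17 ± 0.24, edgeR adjusted p = 0.00459). Mad2l1, whose product binds and blocks CDC20, averaged 144 ± 29.0 CPM in obese tumours and 44.6 ± 14.9 CPM in lean tumours (1.70 ± 0.25, edgeR adjusted p = 0.00132). Ttk, the kinase at the head of the checkpoint, stood apart from these. It had 18.6, 16.7, 19.7 and 23.2 CPM in obese tumours, against 13.2, 29.6, 14.8 and 9.34 CPM in lean tumours (0.23 ± 0.34, edgeR adjusted p = 0.581). Lean replicate 2 was the highest tumour for Ttk, and without it the log2 change was 0.66 (edgeR adjusted p = 0.0342, within 0.0201 to 0.958 over the alternatives).

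In the chromosomal passenger complex, which corrects faulty attachments and later directs cytokinesis, the kinase and both scaffolds rose, and the survivin gene was not called. Aurkb, the catalytic subunit, averaged 113 ± 15.6 CPM in obese tumours and 54.1 ± 12.9 CPM in lean tumours (1.07 ± 0.19, edgeR adjusted p = 0.00284). Incenp, the scaffold that activates it, had 125, 172, 91.4 and 191 CPM in obese tumours, against 59.5, 76.2, 58.5 and 47.2 CPM in lean tumours (1.26 ± 0.25, edgeR adjusted p = 0.00449). Cdca8, which encodes borealin, averaged 88.6 ± 18.6 CPM in obese tumours and 31.6 ± 5.32 CPM in lean tumours (1.49 ± 0.19, edgeR adjusted p = 0.000774). These 3 genes separated the groups with no overlap. Birc5, which encodes survivin, the subunit that reads phosphorylated histone at centromeres, had 166, 122, 156 and 181 CPM in obese tumours, against 149.5, 151, 138 and 119 CPM in lean tumours. The ranges overlapped, and the log2 change of Birc5 was 0.17 ± 0.15 (edgeR adjusted p = 0.343). It was called higher with GC and length offsets (0.51, edgeR adjusted p = 0.0344) and with limma-voom and quality weights (limma adjusted p = 0.0333), and its sign turned with upper quartile factors (−0.04) and library size only (−0.02).

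Of the 7 centromere and kinetochore genes, 4 rose and 3 were not called. The NDC80 complex, the 4-part rod that holds the microtubule at the kinetochore, held both a large rise and all 3 genes without a call. Ndc80 itself (ENSMUSG00000024056, chromosome 17, 71496100 to 71526857) had 79.4, 85.7, 77.3 and 111 CPM in obese tumours, against 19.9, 26.9, 17.4 and 12.7 CPM in lean tumours, which gave a log2 change of 2.20 ± 0.24 (edgeR adjusted p = 0.000416). Its partner Nuf2 had 61.8, 58.0, 75.2 and 89.96 CPM in obese tumours, against 31.1, 73.3, 34.1 and 25.3 CPM in lean tumours (0.80 ± 0.34, edgeR adjusted p = 0.0716). Spc25, at the inner end of the rod, averaged 40.3 ± 3.92 CPM in obese tumours and 23.4 ± 12.4 CPM in lean tumours (0.79 ± 0.33, edgeR adjusted p = 0.0685). For Nuf2 and Spc25 lean replicate 2 lay inside the obese range, and without it both passed (1.24 and 1.21, edgeR adjusted p = 0.00249 and 0.00215). Spc24, the partner of Spc25, had 18, 18, 21.2 and 21.1 CPM in obese tumours, against 23.5, 27.2, 29.7 and 21.6 CPM in lean tumours. All 4 obese values of Spc24 were below all lean values, by a narrow margin at the closest pair, and the log2 change was −0.38 ± 0.15 (edgeR adjusted p = 0.0601). Spc24 was called lower in 6 of 17 alternatives, among them DESeq2's Wald test (DESeq2 adjusted p = 0.0131) and the fit without lean replicate 4 (edgeR adjusted p = 0.0489), while with GC and length offsets its log2 change was 0.19. The log2 ratio of Ndc80 to Spc24 counts within a tumour, chosen after the values were seen and not tested, was 2.14, 2.25, 1.86 and 2.40 in obese tumours, against −0.24, −0.02, −0.77 and −0.77 in lean tumours. Ndc80 shares 92.9% identity over 591 bases with the transcribed pseudogene 2700099C18Rik on the same chromosome, so some of its reads may be ambiguous.

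The other centromere genes, Cenpf, Cenpe and Cenpa, rose. Cenpf, a large kinetochore and nuclear matrix protein, had 76.9, 159, 64.1 and 226 CPM in obese tumours, against 38.7, 67.9, 31.1 and 24.3 CPM in lean tumours. Obese replicates 2 and 4 were high, obese replicate 3 lay below lean replicate 2, and the log2 change of 1.70 ± 0.48 (edgeR adjusted p = 0.0178) missed the threshold without lean replicate 3 (1.58, edgeR adjusted p = 0.0506). It was 2.46 with limma-voom and quality weights. Cenpe, a kinesin that carries chromosomes to the spindle equator, averaged 97.0 ± 36.1 CPM in obese tumours and 35.2 ± 14.2 CPM in lean tumours (1.46 ± 0.35, edgeR adjusted p = 0.00902). With limma-voom and quality weights its change was 2.08. Cenpa, the histone variant that marks centromeres, averaged 84.7 ± 12.3 CPM in obese tumours and 50.8 ± 13.9 CPM in lean tumours (0.74 ± 0.21, edgeR adjusted p = 0.0179), and it missed the threshold without lean replicate 1 (0.69, edgeR adjusted p = 0.0524), with library size only (edgeR adjusted p = 0.0634) and with upper quartile factors (edgeR adjusted p = 0.0575).

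**Figure D3:**
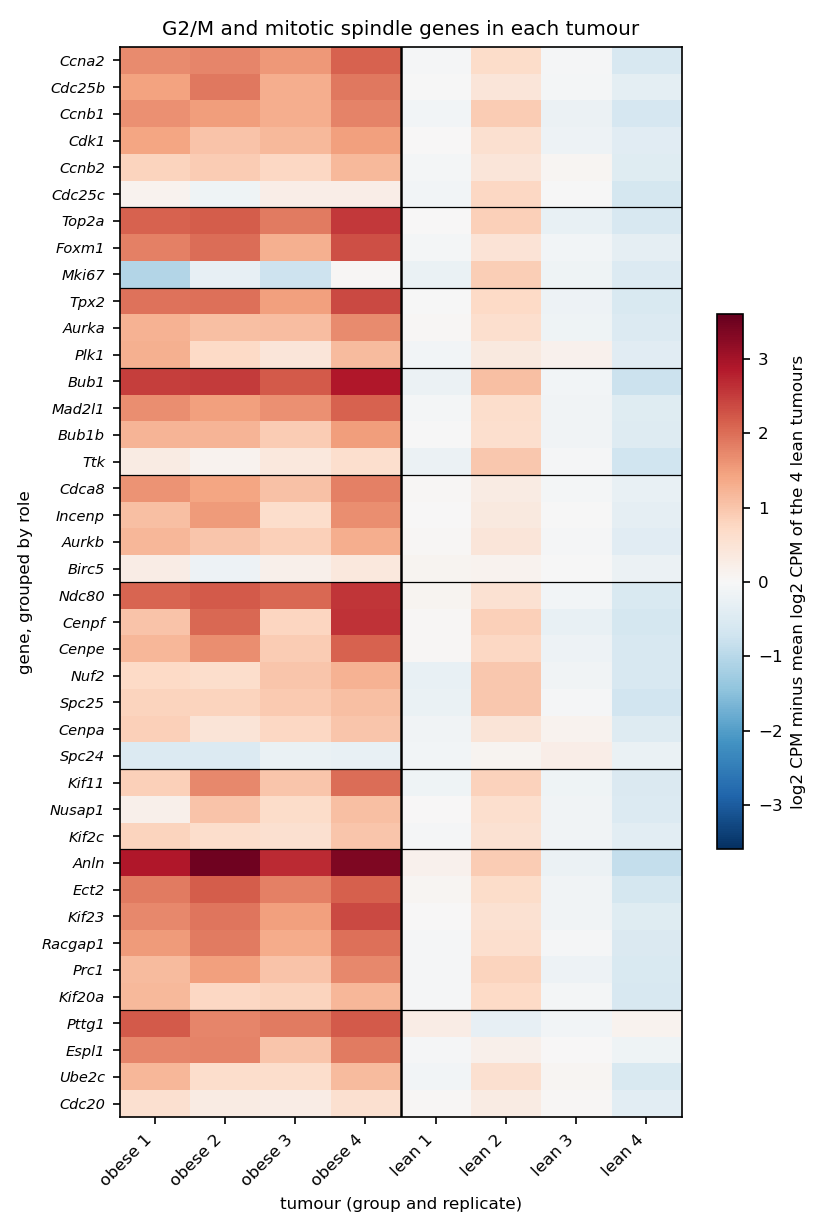
Log2 CPM of each gene in each tumour minus the gene's mean over the 4 lean tumours, with obese tumours in the left columns, lean tumours in the right columns, and black lines between roles; red is above and blue below the lean mean. Obese replicate 4 is the reddest column and lean replicate 4 the bluest. Spc24 is blue in all 4 obese tumours, and Mki67 is blue in obese replicates 1, 2 and 3 and close to 0 in obese replicate 4.

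The spindle motors rose, by differing amounts. Kif11, the motor that pushes spindle poles apart, had 92.7, 169, 103 and 207 CPM in obese tumours, against 46.2, 91.6, 46.3 and 36 CPM in lean tumours (1.38 ± 0.37, edgeR adjusted p = 0.0138). The lowest obese value was just above lean replicate 2. Kif2c, which takes microtubules apart at centromeres, averaged 94.8 ± 12.7 CPM in obese tumours and 57.5 ± 16.5 CPM in lean tumours (0.72 ± 0.21, edgeR adjusted p = 0.0179). Its call ended without lean replicate 1, 3 or 4 (0.70, 0.67 and 0.60, edgeR adjusted p = 0.0514, 0.0597 and 0.0514), and with library size only or upper quartile factors (edgeR adjusted p = 0.0616 and 0.0554). Nusap1, which bundles spindle microtubules, averaged 75.8 ± 19.9 CPM in obese tumours and 45.7 ± 15.2 CPM in lean tumours and lay at the threshold (0.73 ± 0.28, edgeR adjusted p = 0.0501). It was called higher in 6 of 17 alternatives, including those without lean replicate 2 (0.97, edgeR adjusted p = 0.0136) and without obese replicate 1 (0.90, edgeR adjusted p = 0.0270).

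All 6 genes of the central spindle and cytokinesis rose, and Anln rose most of the 40. Anln encodes anillin, which links the contractile ring to the cortex (ENSMUSG00000036777, chromosome 9, 22332012 to 22389188). It had 284, 442, 248 and 394 CPM in obese tumours, against 43.4, 72.8, 33.2 and 21.3 CPM in lean tumours, which gave a log2 change of 3.0 ± 0.40 (edgeR adjusted p = 0.000848). Its log2 change ranked 450 of the 14887. The regulators of the ring moved with it. Ect2, the exchange factor that activates RhoA at the equator, averaged 104 ± 13.7 CPM in obese tumours and 27.3 ± 10.3 CPM in lean tumours (1.93 ± 0.27, edgeR adjusted p = 0.000980). Racgap1 and Kif23 form centralspindlin, the complex that recruits ECT2, and their log2 changes were close, at 1.65 ± 0.26 and 1.87 ± 0.27 (edgeR adjusted p = 0.00171 and 0.00112). Racgap1 averaged 285 ± 58.3 CPM in obese tumours and 91.0 ± 30.5 CPM in lean tumours. Prc1, which bundles the central spindle, averaged 185 ± 40.5 CPM in obese tumours and 76.4 ± 33.0 CPM in lean tumours (1.27 ± 0.30, edgeR adjusted p = 0.00846). Kif20a, a kinesin of the cleavage site, had 180, 133, 138 and 181 CPM in obese tumours, against 77.1, 130, 75.8 and 53.1 CPM in lean tumours. Lean replicate 2 nearly reached the obese values of Kif20a, its log2 change was 0.91 ± 0.27 (edgeR adjusted p = 0.0202), and the call ended without lean replicate 1, lean replicate 3 or obese replicate 4 (0.88, 0.86 and 0.85, edgeR adjusted p = 0.0572, 0.0629 and 0.0501), and with library size only (edgeR adjusted p = 0.0539). The exons of Kif20a overlap those of Cdc23 on the other strand over 1271 bases, and the strand setting of the counting is not given in the sources used here. The same limit holds for other genes of the 40. Among them, exons of Prc1, Ube2c and Ccna2 overlap those of Rccd1, Tnnc2 and Exosc9 on the other strand over 911, 592 and 510 bases.

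The 4 genes that end mitosis rose, unevenly. Pttg1, which encodes securin, the inhibitor of separase (ENSMUSG00000020415, chromosome 11, 43420250 to 43426251), had 139, 103, 110.0 and 139 CPM in obese tumours, against 36.7, 24.5, 28.1 and 33.2 CPM in lean tumours. The groups were far apart, with the smallest adjusted p of the 40 genes (2.0 ± 0.17, edgeR adjusted p = 0.000216). Espl1, the separase gene, had 94.5, 95.8, 56.1 and 101 CPM in obese tumours, against 26.9, 31.8, 28.2 and 25.2 CPM in lean tumours (1.63 ± 0.20, edgeR adjusted p = 0.000609), or a log2 change of 2.23 with GC and length offsets. Obese replicate 3 was the low obese tumour for Espl1 and still above every lean tumour. Ube2c, the ubiquitin-conjugating enzyme of the anaphase-promoting complex, averaged 138 ± 29.2 CPM in obese tumours and 75.2 ± 24.3 CPM in lean tumours (0.87 ± 0.25, edgeR adjusted p = 0.0189). It missed the threshold without lean replicate 1, 3 or 4 (0.83, 0.88 and 0.72, edgeR adjusted p = 0.0564, 0.0546 and 0.0501) and with library size only (edgeR adjusted p = 0.0530), and its change was 1.49 with GC and length offsets. Cdc20, the activator that the checkpoint restrains, had 163, 133, 132 and 163 CPM in obese tumours, against 112, 132, 113 and 83.3 CPM in lean tumours. Its rise was slight and its ranges overlapped by a narrow margin (0.43 ± 0.16, edgeR adjusted p = 0.0483). The call on Cdc20 ended in 11 of 17 alternatives, among them each omission of a tumour other than lean replicate 2 and obese replicate 3 (0.32 to 0.48, edgeR adjusted p = 0.0530 to 0.134), whereas with GC and length offsets the change was 1.16.

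Because so many genes of these tumours differ, ratios of related genes were also taken within each tumour, where the scaling factor cancels. Of 6 pairs, 5 differed between the groups with no overlap, each with the smallest p that 70 assignments of 8 tumours allow (exact permutation test, two-sided p = 0.0286, adjusted p = 0.0343 over 6 pairs). The pairs were chosen with earlier results of these data known. How often other pairs of genes would separate the groups was not counted. Single genes often did, with all obese tumours above all lean tumours for 28.9% of tested genes and below them for 28.1%. Ccnb1 stood near par with Ccnb2 in obese tumours (log2 ratio 0.03 ± 0.13) and below it in lean tumours (−0.64 ± 0.35). Cdc25b exceeded Cdc25c by 1.87 ± 0.44 on the log2 scale in obese tumours and by 0.35 ± 0.24 in lean tumours. Bub1 and Bub1b were counted about equally in obese tumours, with a narrow range (0.04 to 0.16), whereas in lean tumours Bub1 was lower than Bub1b (−1.56 to −0.76). Spc24 was below Spc25 in obese tumours (−1.11 to −0.96), against −0.61 in lean replicate 2 and 0.38 to 0.70 in the other lean tumours. Birc5 to Incenp stood at 0.15 ± 0.55 in obese tumours and at 1.22 ± 0.16 in lean tumours. The Aurora kinases were the exception: Aurka to Aurkb was −0.13 ± 0.15 in obese tumours and −0.33 ± 0.13 in lean tumours, and the ranges overlapped (exact permutation test, two-sided p = 0.114, adjusted p = 0.114). These ratios are of raw counts, so they compare tumours and not the levels of the 2 genes, and they do not remove effects of gene length or GC content. In the fit with GC and length offsets the log2 changes of Spc24 and Spc25 were 0.19 and 0.93, those of Birc5 and Incenp 0.51 and 1.79, and those of Ccnb1 and Ccnb2 1.63 and 1.41, so the order within that last pair was no longer plain.

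**Figure D4:**
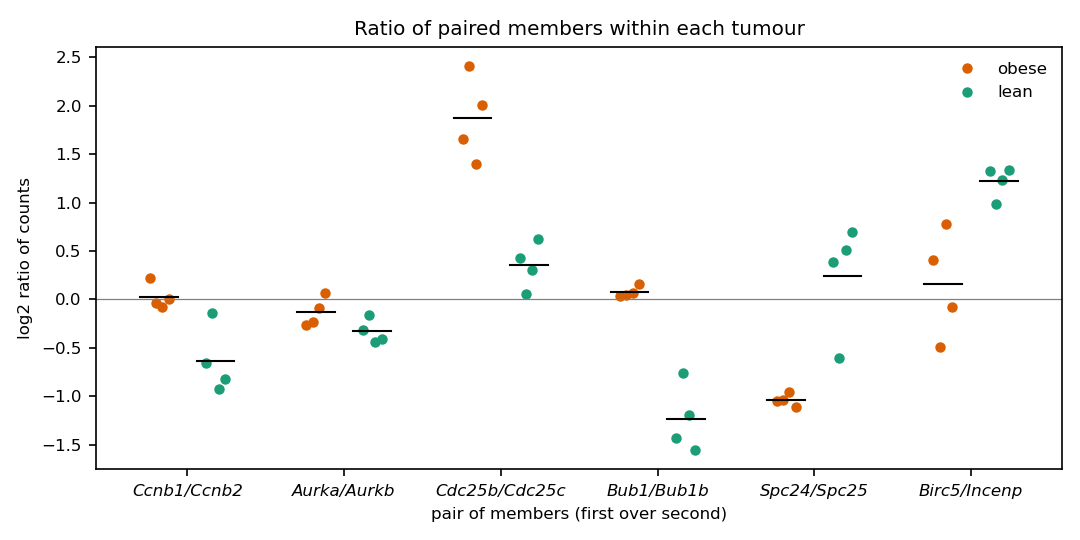
Log2 ratio of raw counts of 2 genes within each tumour for 6 pairs, obese tumours left and lean tumours right of each tick; black lines are group means. In 5 pairs the groups do not overlap, with the largest difference of means for Cdc25b/Cdc25c ( 1.87 in obese and 0.35 in lean tumours), and for Aurka/Aurkb they do.

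Levels can be set against each other between genes only per length, here as CPM per kilobase of annotated exon, which counts the exons of all isoforms. On that scale the highest of the 40 in obese tumours were Cdc20 (79.1 ± 9.49), Top2a (77.4 ± 15.4) and Ccna2 (71.9 ± 12.2), which lay within each other's SD. In lean tumours Cdc20 (58.9 ± 10.7) led, followed by Birc5 (40.9 ± 4.35) and Ccnb2 (32.7 ± 7.97). The lowest in obese tumours were Ttk (3.98 ± 0.56), Cdc25c (6.22 ± 0.77) and Spc24 (7.61 ± 0.70), all of which had not been called higher. In lean tumours the lowest were Cenpf (2.63 ± 1.25), Ndc80 (2.96 ± 0.91) and Espl1 (3.20 ± 0.32). Within the NDC80 complex the levels in obese tumours were 13.6 for Ndc80, 12.7 for Spc25, 11.2 for Nuf2 and 7.61 for Spc24. In lean tumours they were 2.96 for Ndc80, 7.34 for Spc25, 6.46 for Nuf2 and 9.90 for Spc24, so the order of Ndc80 and Spc24 was turned round between the groups.

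The genes also moved together from tumour to tumour within a group. Taken over the 40 genes, the median log2 level above the lean mean was 1.21, 1.45, 1.0 and 1.71 in obese replicates 1 to 4, against −0.04, 0.61, −0.10 and −0.50 in lean replicates 1 to 4. Lean replicate 2 was the highest lean tumour for 38 genes and lean replicate 4 the lowest for 39. Obese replicate 4 was the highest obese tumour for 33 genes and obese replicate 3 the lowest for 25. Lean replicate 2 was also the lean tumour with the lowest summed macrophage and T and NK cell markers (1139 and 81.8 CPM) and the highest endothelial markers (387 CPM), whereas lean replicate 4 had the highest macrophage markers (2938 CPM), and the part of those cells in the mitotic values was not tested. The coefficient of variation across a group had a median of 20.0% in obese tumours (9.26% to 57.6%) and 33.1% in lean tumours (10.0% to 60.1%). In obese tumours it was highest for Cenpf (57.6%), Kif11 (38.1%), Cenpe (37.2%) and Mki67 (33.4%), each of which was higher in obese replicates 2 and 4 than in obese replicates 1 and 3. Their annotated exons are long, at 15433, 7461, 8620 and 10061 bases. Many others of the 40 genes were also higher in obese replicates 2 and 4 than in obese replicates 1 and 3. Among them were Ccnb2, Incenp and Foxm1, whose exons are shorter, at 1531, 4329 and 5754 bases. Mad2l1, with 8390, did not show this. The part of exon length or RNA quality in that pattern was not tested.

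Other genes of cell division, from lists that hold none of the 40, were counted beside them, and each count is to be read against the 30.9% of all tested genes called higher and the 28.4% called lower. Of 65 tested further mitotic genes 52 rose and 4 fell, with a median log2 change of 1.28. The number that fell was 2 without lean replicate 3, without obese replicate 1, 2 or 4 and with no filter, and 1 with GC and length offsets. Zwint, a kinetochore scaffold (1.2 ± 0.11), Plk4, the kinase that starts centriole duplication (1.96 ± 0.20), Cdca5, which protects cohesion (1.96 ± 0.20), and Dsn1, a subunit of the MIS12 complex (1.63 ± 0.17), had the smallest p (edgeR adjusted p = 0.000273 to 0.000338). Cenpm, a subunit of the inner kinetochore, averaged 6.98 ± 0.32 CPM in obese tumours and 13.5 ± 2.92 CPM in lean tumours and fell (−0.95 ± 0.21, edgeR adjusted p = 0.00669), though it was not called with GC and length offsets (edgeR adjusted p = 0.610, and 1.8e-05 to 0.610 over the alternatives). Knl1, a kinetochore scaffold, was listed at 0 in every library. Of 46 genes of G1/S and DNA replication 34 rose and 5 fell, and the median was 0.84. Pola2, a subunit of the priming polymerase, averaged 117 ± 22.5 CPM in obese tumours and 28 ± 2.75 CPM in lean tumours (2.06 ± 0.16, edgeR adjusted p = 0.000181), and Orc6, Cdt1 and Chaf1a rose by 1.14, 1.73 and 1.54. Rfc3, a clamp loader subunit, averaged 35.8 ± 8.51 CPM in obese tumours and 64.1 ± 4.79 CPM in lean tumours and fell (−0.84 ± 0.17, edgeR adjusted p = 0.00476). The count of replication genes that rose was 25 to 27 without lean replicate 1, 3 or 4 or obese replicate 4. It was 27 with library size only or upper quartile factors, and 38 with GC and length offsets. The count that fell was 2 to 3 without lean replicate 1 or 3, without obese replicate 2 or 4 and with GC and length offsets.

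The regulators of late cell cycle transcription were mostly higher. The list of DREAM, MuvB and B-Myb genes also holds NF-Y subunits and further E2F and RB genes. It mixes activators with repressors. Of its 21 genes 16 rose and 1 fell, with a median log2 change of 0.77. The number that fell was 2 to 3 in 10 of 17 alternatives, among them those without lean replicate 1, lean replicate 2 or obese replicate 2. Mybl2, which encodes B-MYB, averaged 57.3 ± 13.4 CPM in obese tumours and 12.7 ± 5.08 CPM in lean tumours (2.17 ± 0.31, edgeR adjusted p = 0.00116). E2f8, a repressor that is itself an E2F target, averaged 142 ± 23.6 CPM in obese tumours and 15.9 ± 5.50 CPM in lean tumours (3.16 ± 0.27, edgeR adjusted p = 0.000212). E2f4 and Rbbp4, components of DREAM and MuvB, rose by 1.49 and 1.26. Nfyc, a subunit of the CCAAT-binding factor, averaged 24.5 ± 2.15 CPM in obese tumours and 42.2 ± 2.75 CPM in lean tumours and fell (−0.79 ± 0.12, edgeR adjusted p = 0.00136), though it was not called with GC and length offsets (edgeR adjusted p = 0.113, and 4.95e-11 to 0.113 over the alternatives).

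Core subunits of the anaphase-promoting complex, whose RNA is made through the whole cycle, were listed together with a co-activator. Calls on this list came at about the share of all tested genes in each direction. Of its 15 genes 5 rose (33.3%) and 5 fell (33.3%), and the median was −0.18, or 0.13 with GC and length offsets. The number that rose was 3 with library size only or upper quartile factors. Cdc27 averaged 140 ± 18 CPM in obese tumours and 50.7 ± 20.8 CPM in lean tumours (1.47 ± 0.26, edgeR adjusted p = 0.00294), and Anapc10 (0.89) and Anapc4 (0.59) also rose. Anapc13 averaged 20.1 ± 6.76 CPM in obese tumours and 54.7 ± 11.8 CPM in lean tumours and fell (−1.44 ± 0.27, edgeR adjusted p = 0.00333). The number of genes on this list that fell was 2 with GC and length offsets or without obese replicate 4. It was 3 without lean replicate 1, 3 or 4 or obese replicate 2. A further list held 13 genes that brake mitotic entry, reverse its phosphorylation or, like Mastl, hold back that reversal, so it mixes opposite roles. Of the 13, 8 rose and 3 fell (23.1%), and the median was 0.39. The number that rose was 5 with upper quartile factors, and the number that fell was 1 without obese replicate 4. It was 2 with GC and length offsets and without lean replicate 1, 3 or 4 or obese replicate 2 or 3. Cdc14b, a phosphatase, averaged 40.9 ± 13.0 CPM in obese tumours and 5.21 ± 0.52 CPM in lean tumours (2.97 ± 0.26, edgeR adjusted p = 0.000233). Mastl, the Greatwall kinase that holds a phosphatase off CDK1 substrates (2.43), Chek1, a checkpoint kinase (1.8), and Ppp2r2a, a phosphatase subunit (1.06), rose, and Chek2 fell (−0.93 ± 0.24, edgeR adjusted p = 0.0121). Of 13 tubulin and gamma-tubulin complex genes 7 rose and 1 fell, and the median was 0.45; the number that fell was 2 with upper quartile factors and 0 with GC and length offsets. Tubb5 averaged 1380 ± 198 CPM in obese tumours and 651 ± 106 CPM in lean tumours (1.09 ± 0.17, edgeR adjusted p = 0.00151), Tuba1c, Tuba1b and the neuronal Tubb3 rose by 1.14, 0.76 and 4.77, and Tubb2a fell (−1.04 ± 0.25, edgeR adjusted p = 0.00952), though it was not called with GC and length offsets (edgeR adjusted p = 0.259, and 0.000184 to 0.259 over the alternatives).

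**Figure D5:**
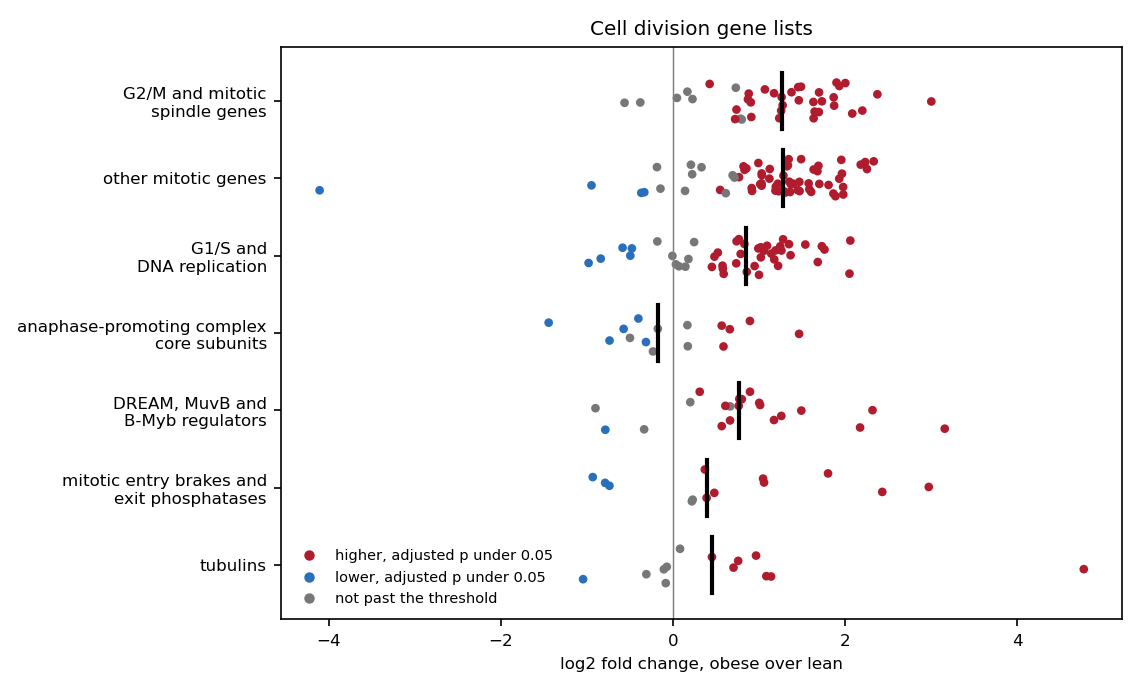
Log2 fold change, obese over lean, of every tested gene in 7 lists of cell division genes; each point is a gene, red if called higher, blue if called lower, grey if not called, and the black bar is the list's median. The medians are 1.27 for the G2/M and spindle genes, 1.28 for further mitotic genes and 0.84 for replication genes. The median is −0.18 for the list of core subunits of the anaphase-promoting complex, which also holds a co-activator.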

How the data were processed

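Read counts per Ensembl gene were used as deposited by the authors, 1 column per tumour, with no normalization. Per the submitters' processing notes, the tools were STAR 2.5.2b, HTSeq, cutadapt 1.12, bcl2fastq 2.18.0.12 and CASAVA 1.8, with build mm10; the roles of the tools, the annotation, strand setting and read filters are not given in the sources used here. Symbols, coordinates and exon lengths came from GENCODE M21 (GRCm38). Obese and lean tumours were compared over the whole table: filterByExpr (minimum count 10, minimum total 15), TMM factors, robust glmQLFit and glmQLFTest in edgeR, Benjamini-Hochberg adjustment over 14887 genes, threshold 0.05. SE was taken as the absolute log2 change divided by the root of the F statistic. CPM is TMM-scaled counts per 1 M counts. Ratios used a prior count of 0.5. Transcripts alike to a gene were sought with blastn at 90% identity or more over at least 200 bases. No 2 libraries were duplicates.

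The genes, lists and tests were chosen with earlier results of these data known. All 40 genes could be named, and of other lists up to 4 with the smallest p and the first in the opposite direction. Alternatives were other scaling factors, filters, limma-voom, DESeq2, offsets for GC content and length, and each tumour left out in turn. Of the steps, only the edgeR fit was tested on simulated counts. Far fewer genes changed in that simulation than were called in these tumours, so it does not cover scaling in that setting. The software was DESeq2 1.42.0, limma 3.58.1 and edgeR 4.0.16 under R 4.3.3.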

Additional observations from a re-analysis of the deposited data

Results flagged for a closer look

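A tumour far from the others of its group was found for 2 of 80 sets of 4 values (40 genes in 2 groups), by Dixon's test at its 95% critical value, and for 0 of 12 sets of pair ratios. Chance marks about 1 set in 20. Mki67 stood at 268 CPM in lean replicate 2, with the other lean tumours at 104 to 130 CPM. Espl1 stood at 56.1 CPM in obese replicate 3, with the other obese tumours at 94.5 to 101 CPM.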

How the results depend on the processing

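Of the 32 genes that rose, 26 were called higher under all 17 alternatives, and the calls on Cenpa, Cenpf, Kif20a, Kif2c, Cdc20 and Ube2c ended under at least 1. No called change of the 40 genes turned its sign. The number of the 40 called higher was 27 to 36 with a tumour left out, and 27 to 37 otherwise; without obese replicate 3 it was 32 and without lean replicate 2 it was 36. The number called lower was 0 to 1 with a tumour left out. It was 1, which is Spc24, with scaling by DESeq2's size factors, by upper quartiles or by library size alone, a filter of 1 CPM in 4 tumours and the DESeq2 Wald test. The median of all tested genes moved to −0.25 under upper quartile scaling, −0.22 by library size alone, −0.15 with no filter and 0.32 with offsets for GC content and length, and the median of the 40 genes lay above it by 1.31, 1.30, 1.45 and 1.31, against 1.31 in the reported fit. Of all calls 52.1% were higher and 47.9% lower in the reported fit, against 41.2% and 58.8% under upper quartile scaling, 42.3% and 57.7% by library size alone, and 65.6% and 34.4% with those offsets. Called genes numbered 4598 higher and 4221 lower, and 3820 to 4771 higher and 3136 to 5107 lower with a tumour left out. No paired analysis was possible because the labels give the tumours no shared numbers. Leaving a tumour out moved the Spc24 to Spc25 difference between −1.57 and −1.14 and that of Cdc25b to Cdc25c between 1.34 and 1.67; a prior count of 2 ended none of the calls on ratios. Depth and the number of tumours were not varied to set their limits against each other.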
